A study of Mus musculus with 9 samples.

Results

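Annexins are proteins that bind acidic phospholipids of cell membranes when calcium rises. The annexins described here were the 9 genes Anxa1, Anxa2, Anxa3, Anxa4, Anxa5, Anxa6, Anxa7, Anxa8 and Anxa11, taken by gene symbol from a table of read counts for 54532 mouse genes. The same table lists 12 annexin genes, and of the other 3, Anxa9 was scarce and Anxa10 and Anxa13 had at most 2 counts over all libraries. The RNA came from the lambdoidal junction of C57BL/6J mouse embryos, where the facial prominences that form the upper lip and primary palate meet and fuse. It was collected at 3 stages named by the day of gestation (E10.5, then E11.5, then E12.5), and each of the 3 RNA-seq libraries of a stage was made from a pool of embryos. All embryos were of this inbred strain, and no treatment or engineered allele was named for any stage. Because the animals were pooled, the spread between the libraries of a stage is one between pools and not between embryos. The family was selected on these counts, that is, proposed with the levels of its genes over the stages already known, so the fitted changes of its members describe them and are no independent evidence of a trend.

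Each annexin has a conserved core of repeats that sits on the membrane and a variable amino-terminal tail that decides its partners. Anxa1 and Anxa2 bind small S100 proteins through that tail. Anxa1 is also a secreted ligand of formyl peptide receptors, and Anxa2 with S100a10 holds plasminogen and its activators at the cell surface. Anxa4, Anxa5 and Anxa6 assemble on membranes that expose phosphatidylserine, and several annexins gather at membrane wounds together with dysferlin, calpains and ESCRT proteins. Anxa7 and Anxa11 have long tails that bind the calcium sensors Sri and Pdcd6. In embryonic tissues, annexins are found in epithelia, in mesenchyme and in blood vessel walls.

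Libraries of E10.5 held 16959676–17756251 counts, those of E11.5 held 18280441–20836804 and those of E12.5 held 16581009–17919664. Levels are given as CPM, counts scaled to a common library total, with library sizes adjusted by the trimmed mean of M-values (TMM) over all 9 libraries. E10.5 replicate 3 stood apart. Its log2 values had an SD of 0.679 against the other replicates of its stage, where the other 8 libraries had 0.317–0.486. Its deviations ran with GC content (Spearman rho = -0.55 over 16363 genes, which are not independent). By the same measure, E10.5 replicates 1 and 2 gave rho of 0.438 and 0.469, each against a mean that includes replicate 3. Libraries of the later stages gave -0.26 to 0.274. E10.5 replicate 3 also held the highest summed level of 8 epithelial markers at its stage (758 CPM, against 413 and 461). It held the lowest of 7 mesenchymal markers (1107 CPM, against 2136 and 2247) and of 6 endothelial markers (114 CPM, against 301 and 308). Each annexin result that changes without it is given both ways.

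The lambdoidal junction holds mesenchyme covered by epithelium and periderm, with vessels and blood. Over the whole interval, in which 14.0% of all genes tested were higher and 10.5% lower, 6 of 7 mesenchymal markers rose and none fell, with summed levels of 1107–2247, 3916–4457 and 5119–6144 CPM at the successive stages. Of 8 epithelial markers, the stratified keratins Krt5 and Krt14 rose and the simple keratins Krt8 and Krt18 fell, with sums of 413–758, 440–466 and 697–794 CPM. All 4 tested periderm markers (Krt6a, Krt17, Sfn and Grhl3) rose, with sums of 32.1–52.8, 60.3–69.1 and 86.0–116 CPM. Krt6a was at 0 at E10.5, and the fifth, Krt4, was at 0 in all libraries but one. None of 6 endothelial markers passed the test (sums of 114–308, 294–308 and 247–314 CPM), and 2 of 7 macrophage markers rose (20.4–30.5, 28.1–33.2 and 38.8–42.3 CPM). Of the erythroid markers, 2 of 6 rose and 1 fell (1907–2787, 3221–3574 and 3614–4634 CPM), and 1 of 6 neuronal markers rose (155–190, 184–207 and 275–312 CPM). The part of these changes in the annexin levels was not tested, and in bulk tissue fewer cells of a type and less RNA per cell cannot be told apart.

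Promoter sequence was matched by symbol to RefSeq start sites (GRCm38.p6) for 7 of the 9 members, which gave 9 windows of 250 bases upstream of a start. Anxa3 and Anxa6 were not matched. Each window was searched on both strands for the TATA box motif, with the letters TATAAA, for the AP-1 site, with the letters TGANTCA, for the GC box, with the letters GGGCGG, and for the box named by its own letters CCAAT. The first of these was found only in the windows of Anxa1 and Anxa2, and 12.4% of all 32851 promoter windows of this length hold it. Whether it goes with the size of a member's change was not tested. The stretches around it are shown because both genes hold it, with the motifs in capitals and 5′ to 3′ on the strand of the gene.
Anxa1, chr19:20390687-20390716, minus strand: tcagttcatatccTATAAAatcaggagtcc
Anxa2, chr9:69453653-69453682, plus strand: aggatgGGGCGGgTATAAAagccccaccca
The first T of the motif lay 32 bases upstream of the RefSeq start in Anxa1 and 17 bases upstream in Anxa2. GENCODE vM21 places the start of 1 or more transcripts of both genes further upstream, so that both stretches also lie in an annotated first exon.

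Further upstream, only the Anxa2 window held an AP-1 site, TGAGTCA, which was in 6.75% of all promoter windows. It is printed with the GC box that precedes it, as the 187 bases of the window that lie before every annotated exon of the gene.
Anxa2, chr9:69453433-69453619, plus strand: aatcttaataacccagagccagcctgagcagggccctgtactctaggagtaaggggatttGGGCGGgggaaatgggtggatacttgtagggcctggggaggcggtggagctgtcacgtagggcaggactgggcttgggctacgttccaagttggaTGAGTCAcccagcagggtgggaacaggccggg
GC boxes were found in the windows of Anxa2, Anxa7 and Anxa11 (32.7% of all windows) and CCAAT in none of the 9 (33.8% of all windows). No 2 of these motifs overlapped in the stretches shown. A match describes letters and not binding, and a window without a match says only that these letters are not in it.

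To see how the family changed, each pair of stages was compared on its own 6 libraries with edgeR's quasi-likelihood test, adjusted over all genes tested, and differentially expressed genes (DEGs) were those with an adjusted p of at most 0.05 whose log2 fold change was also 1 or more in size. All 9 members passed the filter on low counts in each comparison. In E11.5 vs. E10.5, 4 of 9 annexins rose (Anxa1, Anxa2, Anxa5 and Anxa6) and 2 of these were DEGs (Anxa1 and Anxa2). Of all 15708 genes tested, 6.19% were higher and 5.58% lower by the adjusted p, and 3.46% were higher and 2.61% lower as DEGs. Without E10.5 replicate 3, 7 members passed in this interval, and without either replicate 1 or replicate 3 of E11.5 only 2 did. The share of all genes that passed in these smaller fits was not counted. In E12.5 vs. E11.5, 5 annexins rose, with Anxa4 added, and Anxa1, Anxa2, Anxa4 and Anxa6 were DEGs. The shares among 15808 genes were 7.61% higher and 4.57% lower, and 4.14% and 0.962% as DEGs. In E12.5 vs. E10.5, 6 annexins rose, with Anxa8 added, and all but Anxa5 were DEGs, where 14.0% of 15899 genes were higher and 10.5% lower, and 9.97% and 5.08% were DEGs. No annexin fell by edgeR or by DESeq2 in any of the 3 comparisons. At an unadjusted p under 0.05 by edgeR, 8, 6 and 7 members differed, each with a positive log2 fold change. The share of all genes at this unadjusted threshold was not counted, so these numbers describe the members only. The median log2 fold change of the 9 members was 0.70, 0.67 and 1.48, and that of all genes tested was -0.03, 0.02 and -0.01.

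**Figure D1:**
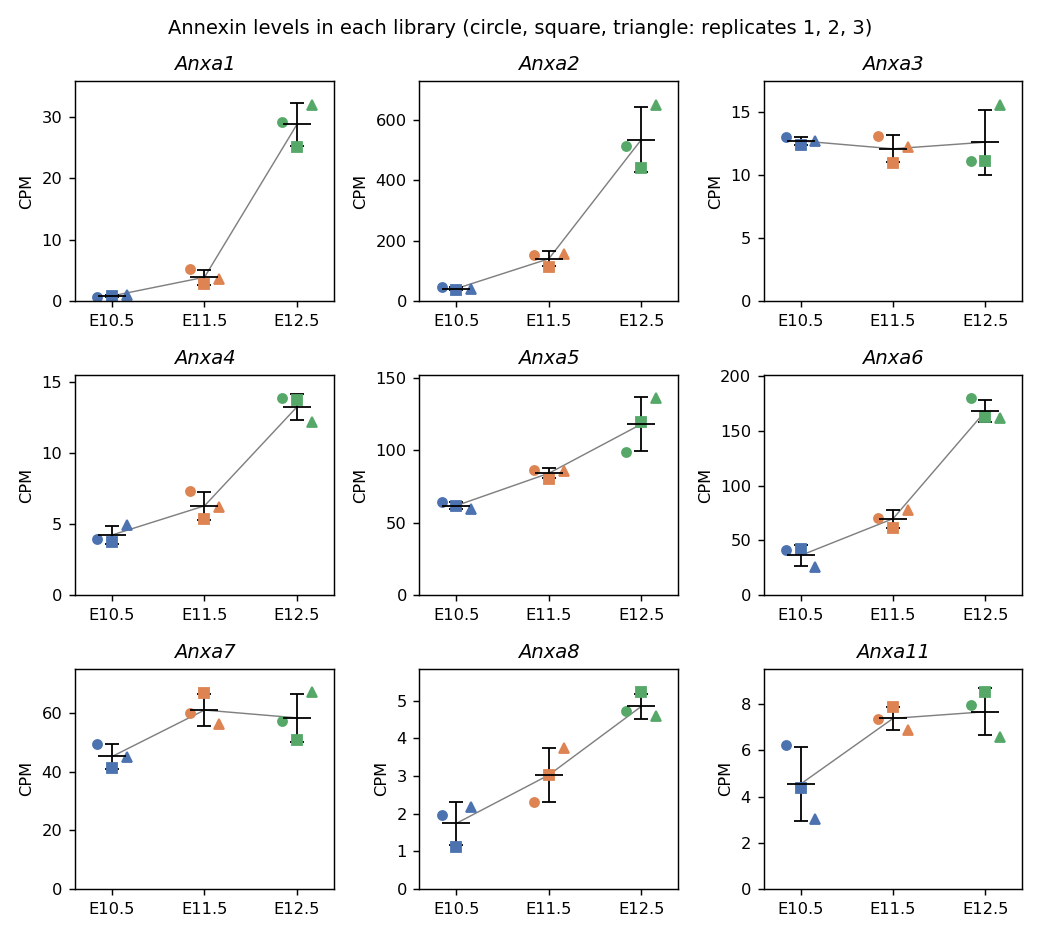
Each panel shows one annexin, with CPM on a linear axis from 0 and the 3 libraries of each stage as points (circle, square and triangle for replicates 1, 2 and 3); bars give the mean and SD. The 3 E12.5 libraries of Anxa1 (25.1–32.0 CPM) and Anxa2 (440–651 CPM) lie far above those of both earlier stages, whereas the Anxa3 libraries overlap between all stages.

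Anxa1 (ENSMUSG00000024659, chr19:20373428-20390944) had the largest change of the family. It encodes a glucocorticoid-responsive, phospholipid-binding protein that limits inflammation. It stood at 0.77, 0.87 and 0.99 CPM at E10.5, at 5.27, 2.89 and 3.58 CPM at E11.5, and at 29.1, 25.1 and 32.0 CPM at E12.5. The 3 stages did not overlap, and the E10.5 values rested on only 13, 15 and 16 counts. Anxa1 rose by a log2 fold change of 2.15 (SE 0.32, edgeR adjusted p = 0.00596) from E10.5 to E11.5, and of 2.87 (SE 0.21, edgeR adjusted p = 3.92e-05) from E11.5 to E12.5. Over the whole interval it rose 32.7-fold (log2 5.03, SE 0.26, edgeR adjusted p = 1.07e-06).

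Anxa2 (ENSMUSG00000032231, chr9:69453620-69491795) rose from an intermediate level to the highest of the family. Its protein links membranes to actin and works in exocytosis and at the cell surface. The libraries held 48.7, 37.4 and 40.2 CPM at E10.5, 153, 113 and 156 CPM at E11.5, and 512, 440 and 651 CPM at E12.5. No library of one stage overlapped another stage. The increase was 3.35-fold in the first interval (log2 1.74, SE 0.16, edgeR adjusted p = 0.0013) and 3.78-fold in the second (log2 1.92, SE 0.18, edgeR adjusted p = 0.000155). Over both intervals it was 12.8-fold (log2 3.67, SE 0.22, edgeR adjusted p = 2.3e-06). An antisense gene, Gm16144, overlaps 2.63% of its exon sequence.

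Of the 8 epithelial markers, the stratified keratins Krt5 and Krt14 rose over the same stages as Anxa1 and Anxa2. Krt5 stood at 1.63–2.42, 24.8–39.9 and 149–153 CPM at the successive stages, and Krt14 at 13.1–21.6, 26.3–36.6 and 117–185 CPM. Krt8 (86.6–141 CPM at E10.5 and 54.1–68.1 CPM at E12.5) and Krt18 (71.6–129 and 41.6–53.7 CPM) fell over the whole interval. Epcam (85.3–151 CPM at E10.5 and 95.4–120 CPM at E12.5), Cdh1 (77.1–133 and 76.5–98.7 CPM), Trp63 and Perp overlapped between these stages. Markers of other cell types also rose in both intervals. Among them were mesenchymal Col1a1 (23.85–62.75, 199–305 and 531–899 CPM at the successive stages) and erythroid Hbb-bs (2.26–4.34, 16.4–23.7 and 70.3–89.5 CPM). The cell type in which either annexin was transcribed was not measured.

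Anxa6 (ENSMUSG00000018340, chr11:54979108-55033445), whose protein has a duplicated core and organizes membrane domains, rose in both intervals. It was measured at 41.1, 41.9 and 25.6 CPM at E10.5, 70.5, 61.4 and 77.5 CPM at E11.5, and 180, 163 and 162 CPM at E12.5. The stages did not overlap, and the low E10.5 value was that of replicate 3. The log2 fold change was 0.95 in the first interval (SE 0.20, edgeR adjusted p = 0.0193), 1.26 in the second (SE 0.13, edgeR adjusted p = 0.000216) and 2.22 over both (SE 0.21, edgeR adjusted p = 4.06e-05). Without E10.5 replicate 3 the first increase was 0.75 (edgeR adjusted p = 7.97e-05). The call of that interval was lost without E11.5 replicate 1 (0.95, edgeR adjusted p = 0.0948) or E11.5 replicate 3 (0.87, edgeR adjusted p = 0.0956).

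Anxa5 (ENSMUSG00000027712, chr3:36448923-36475894), known as the protein probe for phosphatidylserine on dying cells, changed gradually. It stood at 64.2, 61.2 and 59.7 CPM at E10.5, 86.1, 80.1 and 85.8 CPM at E11.5, and 98.6, 119 and 136 CPM at E12.5. The ranges of the 3 stages did not overlap, but the steps were small. The log2 fold change was 0.45 (SE 0.09, edgeR adjusted p = 0.0211), then 0.48 (SE 0.14, edgeR adjusted p = 0.0422), and 0.94 over both intervals (SE 0.18, edgeR adjusted p = 0.00301). The first call was lost when any library but E10.5 replicate 3 was left out (edgeR adjusted p of 0.0517 and 0.0768 without E10.5 replicates 1 and 2, and 0.103, 0.0681 and 0.126 without E11.5 replicates 1, 2 and 3). The second was lost without any E11.5 library (0.134, 0.189 and 0.145 in replicate order) and without E12.5 replicate 3 (0.0745). With the 2 stages a day apart, Anxa5 therefore sat at the threshold, whereas its increase from E10.5 to E12.5 passed in every fit with a library left out (edgeR adjusted p of at most 0.0158).

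Anxa4 (ENSMUSG00000029994, chr6:86736840-86793584), an annexin that forms lattices on membranes of secretory epithelia, was scarcer. It was found at 3.98, 3.77 and 4.95 CPM at E10.5, 7.32, 5.34 and 6.22 CPM at E11.5, and 13.9, 13.7 and 12.2 CPM at E12.5. All libraries of a later stage lay above those of an earlier one. The first interval gave 0.57 on the log2 scale (SE 0.21, edgeR adjusted p = 0.125), and Anxa4 rose in the second by 1.07 (SE 0.17, edgeR adjusted p = 0.00278) and over both by 1.65 (SE 0.23, edgeR adjusted p = 0.000513). Without E10.5 replicate 3 the first interval passed the test (0.70, edgeR adjusted p = 0.0168). Without E11.5 replicate 2 the second increase was 0.95, below the size set for a DEG.

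Anxa8 (ENSMUSG00000021950, chr14:34085981-34100571), known from stratified epithelia, was the least counted member after Anxa1 at E10.5. Its libraries held 1.96, 1.10 and 2.17 CPM at E10.5 (33, 19 and 35 counts), 2.31, 3.03 and 3.74 CPM at E11.5, and 4.73, 5.23 and 4.59 CPM at E12.5. The stages did not overlap. Neither interval passed alone, with log2 fold changes of 0.80 (SE 0.33, edgeR adjusted p = 0.158) and 0.67 (SE 0.23, edgeR adjusted p = 0.0828), and the whole interval did, with a rise of 1.48 (SE 0.32, edgeR adjusted p = 0.00725). Without E10.5 replicate 3 the first interval gave 0.99 (edgeR adjusted p = 0.033).

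The other 3 members did not pass the test in any comparison. Anxa3 (ENSMUSG00000029484, chr5:96793339-96845966), an annexin abundant in neutrophils, was the flattest. It stood at 13.0, 12.4 and 12.7 CPM at E10.5, 13.1, 10.96 and 12.2 CPM at E11.5, and 11.1, 11.1 and 15.6 CPM at E12.5. All stages overlapped, and the whole interval gave a log2 fold change of -0.004 (SE 0.22, edgeR adjusted p = 0.992), with -0.07 (SE 0.14) and 0.06 (SE 0.18) for the single intervals.

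Anxa7 (ENSMUSG00000021814, chr14:20455260-20480133), also called synexin for its role in granule fusion, was at 49.5, 41.2 and 45.1 CPM at E10.5, 60.1, 67.0 and 56.2 CPM at E11.5, and 57.4, 50.8 and 67.2 CPM at E12.5. The E10.5 libraries lay below all others, and the later stages overlapped. The first interval gave 0.44 (SE 0.12, edgeR adjusted p = 0.0507), just outside the threshold, and the second -0.07 (SE 0.14, edgeR adjusted p = 0.764). Without E10.5 replicate 3 the first interval passed (0.44, edgeR adjusted p = 0.00411), as it did by DESeq2 on all 6 libraries (0.44, adjusted p = 0.0296).

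Anxa11 (ENSMUSG00000021866, chr14:25842156-25886804), which tethers RNA granules to lysosomes, stood at 6.24, 4.35 and 3.03 CPM at E10.5, 7.37, 7.89 and 6.90 CPM at E11.5, and 7.95, 8.52 and 6.56 CPM at E12.5. The E10.5 libraries were again the lowest and the later stages overlapped. The log2 fold changes were 0.70 (SE 0.26, edgeR adjusted p = 0.127), 0.05 (SE 0.17, edgeR adjusted p = 0.87) and 0.76 over both intervals (SE 0.30, edgeR adjusted p = 0.0836). Without E10.5 replicate 1 the first and the whole interval passed (1.00 and 1.05, edgeR adjusted p = 0.0483 and 0.0389). Without E10.5 replicate 3 they gave 0.49 and 0.55 (edgeR adjusted p = 0.0622 and 0.124). Its counts are less certain than those of the other members. Of the 50-base stretches of its longest transcript, 25.26% also occur in another gene, mostly Gm2260 and Gm2274, and the antisense gene Anxa11os overlaps 2.73% of its exons.

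**Figure D2:**
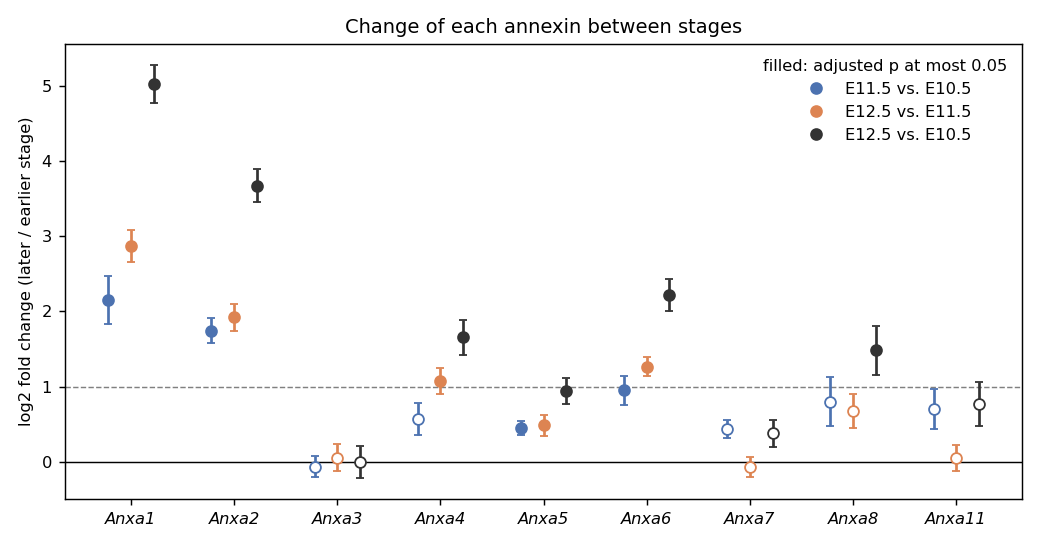
Points give the log2 fold change of each annexin (later over earlier stage) with its standard error, filled where the edgeR adjusted p is at most 0.05 and open otherwise; the dashed line marks a log2 fold change of 1. Anxa1 and Anxa2 are filled and above the line in all 3 comparisons, and all points of Anxa3, Anxa7 and Anxa11 are open.

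Whether an annexin changed more in one interval than in the other was tested as the difference of the log2 fold changes on all 9 libraries. None of the 9 members passed by edgeR (adjusted p of 0.469–0.96 over 16375 genes), and none had an unadjusted p under 0.05. For Anxa1, the difference was 0.73 (SE 0.44), and it was 0.38 or 1.28 when replicate 2 or replicate 1 of E11.5, respectively, was left out. For Anxa7 it was -0.50 (SE 0.25). DESeq2 was not run on this contrast.

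E10.5 replicate 3 deviated from replicates 1 and 2 unequally across the family. Anxa11 and Anxa6, with the highest GC content of the members (55.1% and 54.0%), were lower in it by -0.76 and -0.70 on the log2 scale. Anxa8 (50.7% GC), Anxa4 (46.3%) and Anxa1 (43.6%) were higher, by 0.52, 0.34 and 0.24. The remaining members deviated by -0.09 to 0.00. After each library was corrected for its GC trend, the first-interval log2 fold change of Anxa6 was 0.97 (edgeR adjusted p = 0.00285) and that of Anxa11 was 0.74 (edgeR adjusted p = 0.0429). Whether the deviations of Anxa6 and Anxa11 come from GC content or from the tissue in this pool was not tested.

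**Figure D3:**
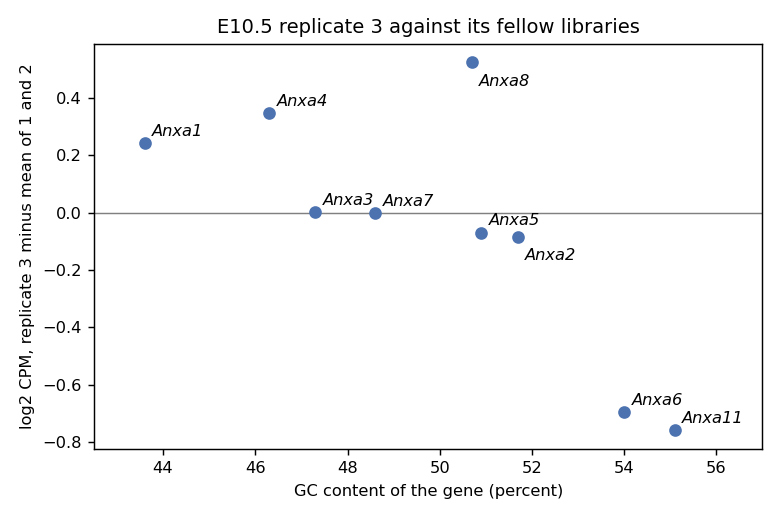
Each point is one annexin, with the GC content of its longest transcript on the x axis (percent) and the log2 CPM of E10.5 replicate 3 minus the mean of replicates 1 and 2 on the y axis. Anxa6 and Anxa11 lie lowest (-0.70 and -0.76) and Anxa8 highest (0.52).

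To compare annexins with each other, CPM was divided by the gene length in the table (CPM per kb). This length exceeded the longest annotated transcript unequally. It was 3731 against 2280 bases for Anxa2 and 5991 against 2904 for Anxa7, but 1777 against 1731 for Anxa5. The order of the members and their shares of the family total depend on the length used, and levels per transcript length were not computed. At E10.5 Anxa5 was the most abundant, at 34.7 CPM per kb (33.6–36.1). It was followed by Anxa6 (12.4) and Anxa2 (11.3), whose ranges overlapped, Anxa7 (7.55) and Anxa3 (3.48). Anxa11 (1.10), Anxa8 (0.93) and Anxa4 (0.91) overlapped in sequence, and Anxa1 was last (0.34). At E11.5 Anxa2 (37.7) had moved to second place behind Anxa5 (47.3) and ahead of Anxa6 (23.8), Anxa7 (10.2) and Anxa3 (3.31). Anxa11, Anxa8, Anxa1 and Anxa4 followed at 1.35–1.79, and each overlapped the next.

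By E12.5 Anxa2 led with 143 CPM per kb (118–174). Anxa5 (66.3) and Anxa6 (57.4) overlapped and came next. Anxa1 followed (11.02, range 9.63–12.3) and overlapped Anxa7 (9.76, range 8.48–11.2). Anxa3 (3.46) stood below them, Anxa4 (2.85) overlapped Anxa8 (2.58), and Anxa11 was last (1.86). The deposited FPKM values gave the same place to all 9 members at each stage. They rest on the same counts and gene lengths, so this is no independent check of the order.

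The summed level of the family was 72.7 ± 5.69, 129 ± 10.7 and 298 ± 37.1 CPM per kb at the successive stages (SD, n = 3 each), and the stages did not overlap. Anxa2 supplied 15.5% ± 1.37, 29.2% ± 2.75 and 47.7% ± 3.75 of it at the 3 stages. Anxa5 supplied 47.9% ± 1.97, 36.9% ± 1.69 and 22.3% ± 2.73, although its own level was higher at each later stage. The share of Anxa6 overlapped between stages (12.9–19.9%, 18.0–19.5% and 16.2–21.5%). Anxa7 went from 10.4% to 8.01% and 3.27%, and Anxa3 from 4.81% to 2.58% and 1.15%, while Anxa1 went from 0.468% to 1.16% and 3.70%. These shares add up to a whole, so a larger share of Anxa2 lowers the summed share of the others, though not each of them.

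**Figure D4:**
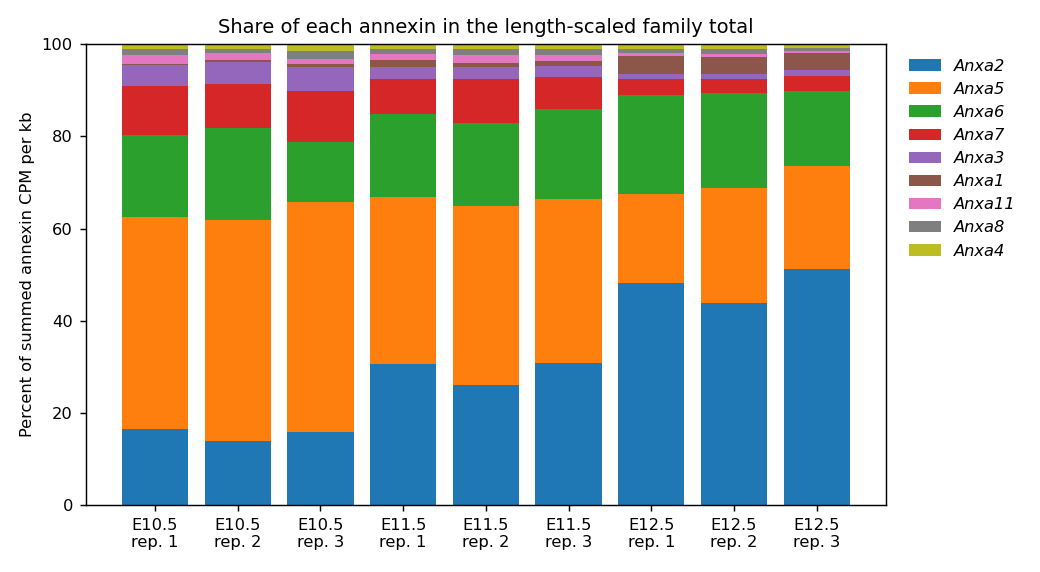
Stacked bars show, for each of the 9 libraries, the percent of the summed annexin CPM per kb that each member supplied. Anxa2 takes 13.9–16.6% of the bar in the E10.5 libraries and 43.8–51.2% in the E12.5 libraries, and Anxa5 goes from 45.9–49.8% to 19.4–24.9%.

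The remaining annexins of the table contributed little. Anxa9, an annexin whose core has lost calcium-binding sites, was at 2.26, 1.63 and 0.68 CPM at E10.5, 2.69, 1.30 and 1.42 CPM at E11.5, and 1.47, 1.51 and 1.61 CPM at E12.5, with overlapping stages and a whole-interval log2 fold change of 0.01 (SE 0.44, edgeR adjusted p = 0.989). Anxa10 had 1 count and Anxa13 had 2 counts over all 9 libraries, so that neither was tested. A count of 0 allows up to 3 counts, which is 0.144–0.186 CPM in these libraries and covers counting error only.

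Partners that bind annexin tails were compared next. Of 7 listed genes, 6 were tested and S100a4 was not, with at most 0.18 CPM in any library. In E11.5 vs. E10.5, 2 rose (Ahnak and Sri), in E12.5 vs. E11.5, 4 rose (S100a10, S100a11, S100a6 and Ahnak), and in E12.5 vs. E10.5, 5 of 6 rose and none fell, beside 6.19%, 7.61% and 14.0% of all genes that were higher in these comparisons. The median log2 fold change of the 6 was 0.41, 0.98 and 1.77, beside -0.03, 0.02 and -0.01 for all genes. S100a10, the partner of Anxa2, was at 26.3, 21.1 and 36.6 CPM at E10.5, 37.3, 35.1 and 39.6 CPM at E11.5, and 122, 80.3 and 149 CPM at E12.5. E10.5 and E11.5 overlapped and all E12.5 libraries lay above both. The first interval gave 0.42 (SE 0.20, edgeR adjusted p = 0.21), and S100a10 rose by 1.65 in the second (SE 0.20, edgeR adjusted p = 0.000502). The difference between these intervals did not pass the test (1.24, SE 0.41, edgeR adjusted p = 0.218).

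S100a11, which binds Anxa1, was at 30.2, 30.1 and 50.6 CPM at E10.5, 57.7, 51.4 and 60.6 CPM at E11.5, and 153, 111 and 152 CPM at E12.5. It gave 0.62 in the first interval (SE 0.21, edgeR adjusted p = 0.0996) and rose by 1.28 in the second (SE 0.15, edgeR adjusted p = 0.000423). Ahnak, a giant scaffold that binds the complex of Anxa2 and S100a10, rose in both intervals, by 1.44 (SE 0.15, edgeR adjusted p = 0.00179) and 0.68 (SE 0.18, edgeR adjusted p = 0.0304). Of the calcium sensors for Anxa7 and Anxa11, Sri rose by 0.73 over the whole interval (SE 0.17, edgeR adjusted p = 0.0111), and Pdcd6 gave 0.33 (SE 0.20, edgeR adjusted p = 0.263). No partner was compared with its annexin by a test, since both were measured in the same libraries.

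Receptors and effectors of the surface functions of Anxa1 and Anxa2 were looked at in the same way. The Anxa1 receptors Fpr2 and Fpr3 had no count in any library, and Fpr1 had 1 count at E11.5 and 2 at E12.5. Plasminogen itself (Plg) had at most 0.058 CPM in any library. Of its 3 tested activators and receptor, none passed in a single interval, and 1 of 3, the urokinase gene Plau, rose by 0.80 over the whole interval, beside 14.0% of all genes that were higher (SE 0.26, edgeR adjusted p = 0.0475). The tissue activator Plat gave -0.19 (SE 0.25, edgeR adjusted p = 0.628) and the urokinase receptor Plaur 0.61 (SE 0.53, edgeR adjusted p = 0.442).

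Genes of plasma membrane repair were listed because annexins act there with them. Of 12 listed, 11 were tested, and Trim72 was not. Of the 11, 3 rose in the first interval (Cav1, Myof and Capn2), 5 in the second and 7 over both, beside 6.19%, 7.61% and 14.0% of all genes. None of the 11 fell, where 5.58%, 4.57% and 10.5% of all genes were lower. The caveolar coat gene Cav1 went from 3.68, 2.55 and 2.73 CPM at E10.5 to 9.90, 8.32 and 9.85 CPM at E11.5 and 24.9, 24.9 and 24.6 CPM at E12.5, with no overlap, and rose by 3.06 over the whole interval (SE 0.23). Its partner Cavin1 rose by 2.23 (SE 0.35, edgeR adjusted p = 0.00104), and Myof, a relative of dysferlin, by 2.18 (SE 0.31, edgeR adjusted p = 0.000553). The median of the 11 was 0.46, 0.27 and 0.85 in the 3 comparisons, beside -0.03, 0.02 and -0.01 for all genes. Caveolae are also abundant in endothelium. In E10.5 replicate 3, where the 6 endothelial markers summed to 114 CPM, Cavin1 was at 7.93 CPM, against 26.7 and 22.4 CPM in replicates 1 and 2. Cav1 did not share this drop (2.73 CPM, against 3.68 and 2.55 CPM). The part of endothelium, or of the GC trend of this library, in these levels was not tested.

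Among the 9 genes reported here that expose or recognize phosphatidylserine, the lipid bound by Anxa5, 1 rose in the first interval and 2 rose in the second and over both, beside 6.19%, 7.61% and 14.0% of all genes that were higher, so that the counts of this list say little about it. The receptor gene Axl rose by 1.35 from E10.5 to E12.5 (SE 0.17, edgeR adjusted p = 0.000276), and its ligand Gas6 by 0.90 (SE 0.24, edgeR adjusted p = 0.0197). The other 7 did not pass, and the median of the 9 was 0.35 over the whole interval, beside -0.01 for all genes.

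**Figure D5:**
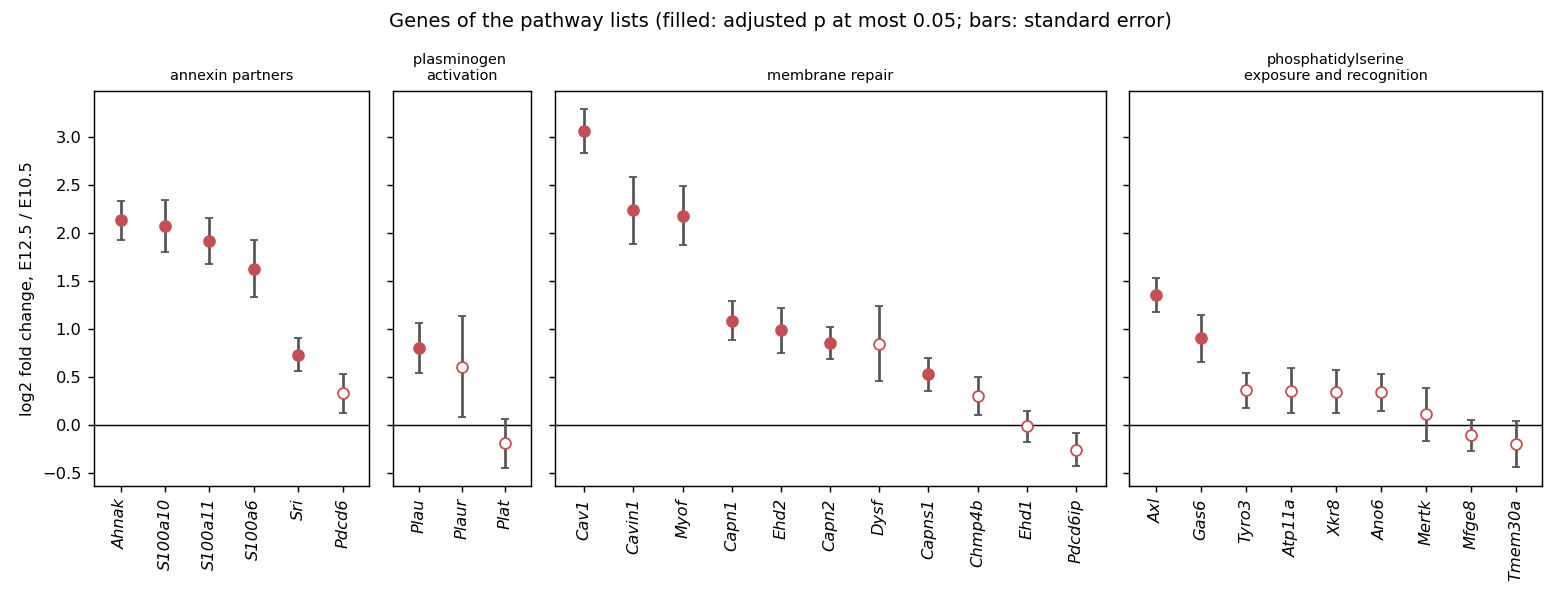
The log2 fold change from E10.5 to E12.5 is shown with its standard error for each tested gene of 4 lists, filled where the edgeR adjusted p is at most 0.05. In the partner list 5 of 6 points are filled, in the plasminogen list 1 of 3, in the membrane repair list 7 of 11, and in the phosphatidylserine list 2 of 9.

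For each member, the genes with the most similar course were sought among 16374 genes, by the root mean square difference of log2 CPM after centring each gene over the 9 libraries. The libraries share stage and depth, and the measure describes these libraries only. Nearest to Anxa2 were the basal keratin gene Krt15 (0.168), the matrix gene Matn2 (0.20) and the actin-severing Gsn (0.235). Nearest to Anxa1 were Kcne4 (0.288), Aqp1 (0.349) and the epithelial transcription factor gene Ehf (0.362), at a greater distance than for any other member. This distance can grow with the size of a gene's change. By Pearson r over the 9 libraries, these neighbours had 0.985–0.991 with Anxa1, whereas the neighbours of the flat Anxa3 had 0.847–0.848 with it. Among members, Anxa1 and Anxa2 were 0.564 apart. Other pairs of members were closer, and Anxa3 and Anxa7 were the closest (0.256).

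Anxa6 ran closest to Atp9a (0.084), C1qtnf6 (0.0979) and Aplp1 (0.118), Anxa5 to Cyp4f16 (0.0643), Nsg1 (0.0972) and Pdcd4 (0.101), and Anxa4 to 1190002N15Rik (0.0572), the tetraspanin gene Cd9 (0.119) and Gm12454 (0.133). Anxa8 was nearest to the caveolin gene Cav2 (0.191), Rxrg (0.194) and Entpd3 (0.195). The neighbours of Anxa3 were Coq6, Cers5 and Ilkap (0.0792–0.0843), those of Anxa7 were Acadl, Id2 and Tcim (0.106–0.111), and those of Anxa11 were Plau, Stat2 and Syk (0.13–0.138).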

How the data were processed

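RNA-seq of 9 libraries was analysed. The authors mapped reads to GRCm38/mm10 with HISAT2 2.0.5 (submitters' processing notes). They deposited whole-number read counts per gene, without normalization, and FPKM values. The FPKM values were used only beside the order of the levels, and they rest on the same counts and lengths. Strand and treatment of reads with several positions are not given in the sources used here. The deposited log2 fold changes and p-values hold the authors' own comparisons and were not used. Gene lengths are those deposited. Depth was 16581009–20836804 counts per library. Counts were fitted in R 4.3.3 with edgeR 4.0.16 (filterByExpr, TMM, glmQLFTest) per pair of stages and adjusted by Benjamini-Hochberg over all genes tested. Standard errors were derived from the F statistic. DESeq2 1.42.0 and other normalizations, filters, GC trend removal (lowess, span 0.3), a replicate block and each library left out were alternatives. The fit was tested on simulated counts, with the same spread beyond counting error for all genes and no GC trend. Over the comparisons of stages it recovered 71–73% of 2-fold and 95–99% of 4-fold changes. Gene coordinates were those of the table, and all 9 members had the same ones in GENCODE vM21, as had 98.26% of 54409 genes. Promoters were taken from RefSeq.

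The members and lists were chosen with earlier results of these data known. The genes named were all annexins, in each pathway list up to 3 that rose and 3 that fell with the smallest p over the whole interval and those not tested, the 3 nearest genes of each member, and marker genes of the tissue. S100a6, Sri, Pdcd6, Plat, Plaur and Capn2 were named beyond that rule, after their values were seen. The labels give replicate numbers but do not say that they pair samples. A gene of the phosphatidylserine list is not reported here and was left out of that list's counts and median.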

Additional observations from a re-analysis of the deposited data

How the results depend on the processing

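In E11.5 vs. E10.5, the number of annexins that passed the adjusted p was 4, and 2–7 with each library left out in turn. It was 7 without E10.5 replicate 3 and 2 without either replicate 1 or replicate 3 of E11.5. The share of all genes that passed was not counted for the alternative fits, so their counts of members stand without it. The remaining counts of members stayed within 1.5 times the reported ones under the alternatives run, and Anxa1 and Anxa2 passed in all of them. In E11.5 vs. E10.5 the count was 6 with the GC trend removed, with or without the replicate block. Anxa11 and Anxa7 were added there (for Anxa7 0.43, edgeR adjusted p = 0.0212, and 0.0345 with the block). Upper quartile normalization also added Anxa7 (0.45, edgeR adjusted p = 0.0483). Sign changes arose only for values that did not pass the test in either fit, and the cause was not tested. They concerned Anxa11 in E12.5 vs. E11.5 (-0.0209 with the GC trend removed, -0.0263 with the GC trend removed and the replicate block, -0.0372 to 0.14 with a library left out) and Anxa3 in E12.5 vs. E10.5 (0.0591 with upper quartile normalization, 0.0087 with all genes of at least 1 count, 0.0151 with the GC trend removed, -0.19 to 0.0816 with a library left out). With a library left out, the range was -0.13 to 0.00034 for Anxa3 in the first interval, -0.13 to 0.14 in the second, and -0.19 to 0.0168 for Anxa7 in the second. The difference between intervals ranged from 0.38 to 1.28 for Anxa1, -0.0841 to 0.35 for Anxa2, -0.0498 to 0.26 for Anxa3, -0.0724 to 0.16 for Anxa5 and -0.43 to 0.25 for Anxa8.

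Between stages, correlations of same-numbered libraries were -0.151 to 0.22 and those of differently numbered libraries -0.219 to 0.223. The same-numbered range lay within the other, and the replicate numbers were not taken as pairs. With the replicate block, 3, 4 and 7 annexins passed in the 3 comparisons, the Anxa5 call was lost in both single intervals (0.45 and 0.47, edgeR adjusted p = 0.0834 and 0.0555) and Anxa11 passed over the whole interval (edgeR adjusted p = 0.0494). The fit on all 9 libraries also ended both Anxa5 calls (0.44 and 0.49, edgeR adjusted p = 0.058 and 0.0525), and the GC trend removed with the replicate block ended the second (0.47, edgeR adjusted p = 0.0578). Low counts limit Anxa1 and Anxa8 at E10.5.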
